A study of Mus musculus with 4 samples.

Results

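The 41 genes described here encode the core machinery of autophagy and were chosen by function. They comprise 5 genes of initiation, 7 of nucleation, 5 of membrane supply, 16 of the conjugation systems, 5 cargo receptors and 3 lysosomal genes, out of 21951 protein-coding genes in the GENCODE basic annotation of mm10. Binding of MIZ-1 was mapped by ChIP-seq in B220+ cells of the spleen, which belong to the B lineage. They came from wild-type animals (MIZ-1WT) or from MB1-cre x Miz-1floxedPOZ mice (MIZ-1DPOZ). In the latter, Cre expressed in B lineage cells removes the POZ domain of MIZ-1, and the antibody H-190 was used for both genotypes. Each of the 2 genotypes had 1 ChIP library with 1 input library, and the authors made 1 peak list per genotype. No agent was given. The mouse lines were on a C57BL/6 background, and the study's methods describe young adult mice for its experiments. The labels give neither the age nor the number of animals behind a library. With 1 ChIP library per genotype, every difference below is a difference between 2 peak lists and could not be tested between genotypes. Peak lists carry no expression values, so that the B cell identity of the sample cannot be checked from them.

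Autophagy encloses cytoplasm in a double membrane and delivers it to lysosomes for degradation. The ULK1 kinase complex starts the process, a class III phosphatidylinositol 3-kinase complex built around Beclin 1 marks the forming membrane, and lipid carriers supply it with membrane. Ubiquitin-like conjugation systems then attach LC3 and GABARAP proteins to the membrane, cargo receptors bind to these, and TFEB controls the transcription of lysosomal and autophagy genes. MIZ-1 is a zinc finger transcription factor with an N-terminal POZ domain and has been reported to maintain autophagic flux. The study measured autophagic flux in the same mouse model, and the question addressed here is whether MIZ-1 was located at the genes of this pathway.

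Sequences under promoter peaks of each step are shown first, because they show the base composition of these sites. They come from the step's highest peak in 1 of the lists where enough bases lay outside untranslated regions, so that Rb1cc1 and Atg2b, whose peaks ranked higher than some of those shown, are absent, and Atg12 is not reported as sequence. Each run was read from the mm10 genome in the direction of the gene's transcription, within 60 bp of the summit or, where the summit lay in an untranslated region, beside it. CpG dinucleotides are in capitals.
Ulk1 chr5:110809685-110809724 (- strand): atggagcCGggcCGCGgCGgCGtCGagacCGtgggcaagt
Ambra1 chr2:91730380-91730486 (+ strand): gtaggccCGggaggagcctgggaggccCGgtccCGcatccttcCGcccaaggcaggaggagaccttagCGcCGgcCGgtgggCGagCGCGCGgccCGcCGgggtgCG
Wipi2 chr5:142629919-142630039 (+ strand): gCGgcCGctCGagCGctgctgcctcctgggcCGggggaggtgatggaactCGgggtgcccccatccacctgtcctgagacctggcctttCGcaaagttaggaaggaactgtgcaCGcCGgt
Atg4b chr1:93755179-93755299 (+ strand): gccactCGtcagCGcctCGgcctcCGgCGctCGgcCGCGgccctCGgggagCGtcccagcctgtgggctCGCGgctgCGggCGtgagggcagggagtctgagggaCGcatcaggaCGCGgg
Atg10 chr13:91223863-91223938 (- strand): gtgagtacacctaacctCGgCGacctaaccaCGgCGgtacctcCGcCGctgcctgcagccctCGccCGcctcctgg
Optn chr2:5063739-5063859 (- strand): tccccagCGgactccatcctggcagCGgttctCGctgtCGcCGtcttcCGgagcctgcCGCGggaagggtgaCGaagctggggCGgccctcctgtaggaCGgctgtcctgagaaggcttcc
Tax1bp1 chr6:52713856-52713916 (+ strand): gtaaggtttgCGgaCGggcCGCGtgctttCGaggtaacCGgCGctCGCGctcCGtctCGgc
Lamp1 chr8:13159389-13159491 (+ strand): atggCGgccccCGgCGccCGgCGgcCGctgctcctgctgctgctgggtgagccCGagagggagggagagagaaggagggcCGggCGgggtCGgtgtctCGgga
The Ulk1, Ambra1, Atg4b and Optn runs came from MIZ-1DPOZ peaks, and the Wipi2, Atg10, Tax1bp1 and Lamp1 runs from MIZ-1WT peaks. The Ambra1, Atg4b, Atg10, Optn, Wipi2 and Lamp1 runs contained the summit. The Ulk1 run began 21 bp and the Tax1bp1 run 42 bp from it. The GC content of the runs was 66.9% for Wipi2 at the lowest and 78.5% for Ambra1 at the highest, and the Atg4b run held 17 CpG dinucleotides in 121 bp. None of these 8 runs contained the E-box CACGTG. The separate MIZ-1DPOZ peak of Lamp1, which had an E-box near its summit, is not among them.

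Promoter peaks were counted from 2000 bp before to 1000 bp after every transcript start of a gene. Of the 41 autophagy genes, 17 (41.5%) had a promoter peak among the MIZ-1WT peaks, where 30.9% of all protein-coding genes had one. Among the MIZ-1DPOZ peaks, 25 (61%) had one, against 48.7% of all protein-coding genes. A peak in both lists was found at 13 genes (background 26.6%), in the MIZ-1WT list only at 4 (background 4.23%), and in the MIZ-1DPOZ list only at 12 (background 22%). The other 12 genes had no promoter peak in either list. With all peaks counted, the shares of autophagy genes were above the backgrounds in both lists and in each of these 3 classes. The share of autophagy genes without a promoter peak was therefore below that of all protein-coding genes. These are descriptions of 1 library per genotype with no test.

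The lead over all genes depended on the strength of the peaks that were counted. The authors' −log10 q, where q is the adjusted p-value of a peak over its background, was at least 5 at 7 autophagy genes in the MIZ-1WT list (17.1%, against 9.77% of protein-coding genes). Among MIZ-1DPOZ peaks 12 genes reached this value (29.3%), which was below the 33.3% of all protein-coding genes. When the MIZ-1DPOZ list was reduced to its 34209 highest peaks, the number in the MIZ-1WT list, 10 of 41 autophagy genes kept a peak. This share was slightly below the 25.3% of protein-coding genes. The 15 autophagy genes that lost their peak were Rb1cc1, Pik3r4, Atg14, Nrbf2, Atg4d, Atg5, Atg10, Map1lc3a, Gabarap, Gabarapl1, Gabarapl2, Sqstm1, Optn, Lamp1 and Lamp2. The MIZ-1DPOZ promoter calls of these genes, given below, thus rest on the longer list.

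**Figure D1:**
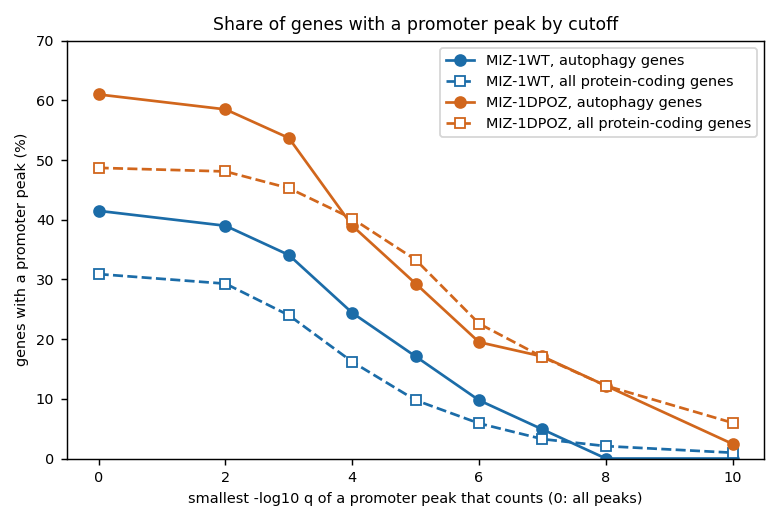
Share of genes with a promoter peak (%, y axis) by the smallest −log10 q that counts (x axis), for the 41 autophagy genes (filled circles) and all protein-coding genes (open squares) in each list. The MIZ-1DPOZ curve of the autophagy genes starts at 61% and meets that of all genes at a cutoff of 4 (39% and 40.2%), while the MIZ-1WT curve lies above its background up to a cutoff of 7 (4.88% and 3.26%).

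The peaks at autophagy genes rested on few fragments. The pileup, which is the number of fragments over a summit, was recovered from the authors' scores and was 6 to 13 for the 18 MIZ-1WT promoter peaks and 6 to 21 for the 25 MIZ-1DPOZ promoter peaks. Across genes with a promoter peak, the median of the highest pileup was 9 for both the autophagy genes and all protein-coding genes in the MIZ-1WT list. In the MIZ-1DPOZ list the medians were 11 and 13, and the median −log10 q was 4.31 for autophagy genes against 5.96 for all genes. The tallest promoter peaks of protein-coding genes reached 296 fragments for MIZ-1WT and 346 for MIZ-1DPOZ, beside 13 and 21 as the highest at an autophagy gene. These are maxima over 6777 and 10684 genes with a peak against 17 and 25, and a maximum depends on the size of the set. The authors' fold enrichment was scaled separately in each list and is not compared between lists.

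**Figure D2:**
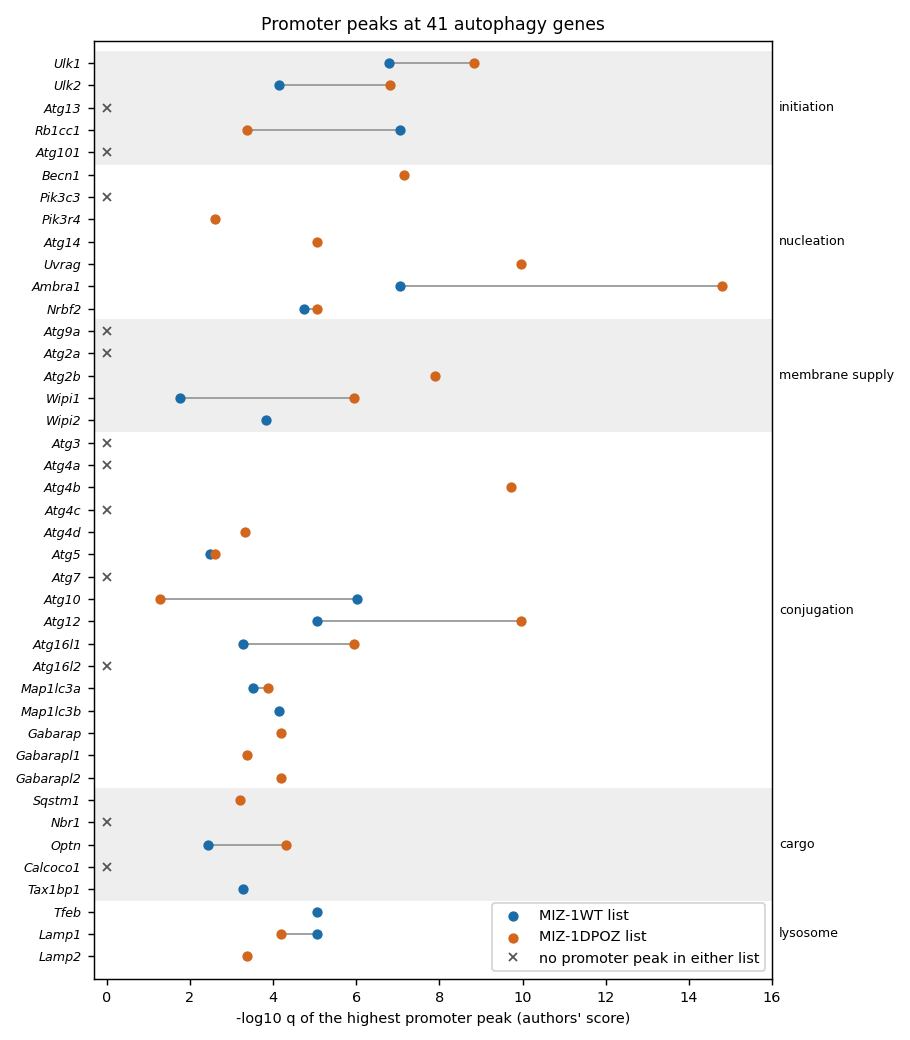
Highest −log10 q of a promoter peak (x axis) for each of the 41 genes (y axis, ordered by step) in the MIZ-1WT list (blue) and the MIZ-1DPOZ list (orange), with lines joining genes found in both and crosses for genes with no promoter peak. Ambra1 has the highest value (14.8, MIZ-1DPOZ), and the 12 genes with crosses occur in every step but the lysosomal one.

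Among the initiation genes, Ulk1, Ulk2 and Rb1cc1 had a promoter peak in both lists, while Atg13 and Atg101 had one in neither. That is 60% of the 5 genes in each list, beside backgrounds of 30.9% (MIZ-1WT) and 48.7% (MIZ-1DPOZ). The MIZ-1DPOZ count with equal numbers of peaks was 2 (40%, background 25.3%). Ulk1, the kinase that starts autophagy, had 12 fragments in the MIZ-1WT list (exact 95% Poisson interval 6.20 to 21, −log10 q 6.79, chr5:110809896-110810187) and 16 in the MIZ-1DPOZ list (9.15 to 26, −log10 q 8.83, chr5:110809614-110810122). The MIZ-1WT summit lay at -19 bp from the start and the MIZ-1DPOZ summit at 308 bp, in the 5′ untranslated region. Rb1cc1, which encodes the scaffold FIP200, had the highest −log10 q of any autophagy gene in the MIZ-1WT list together with Ambra1 (7.06 for each), with 12 fragments at chr1:6214568-6214855. In the MIZ-1DPOZ list Rb1cc1 had 9 fragments and a −log10 q of 3.37, and both peaks also lay in the promoter window of the antisense transcript 4732440D04Rik. With only the nearest start counted, Rb1cc1 lost its MIZ-1DPOZ peak. Ulk2, the paralog of Ulk1, had 9 fragments (−log10 q 4.14) and 14 fragments (−log10 q 6.81) in the respective lists, with summits at 592 and 479 bp. Thus the 2 ULK kinases and their scaffold carried peaks, whereas the genes of the 2 HORMA domain subunits did not: for Atg13 the nearest MIZ-1WT peak was 19443 bp from a start, which is the Ambra1 promoter peak of the neighbouring gene.

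Of the 7 nucleation genes, 2 (28.6%, background 30.9%) had a MIZ-1WT promoter peak and 6 (85.7%, background 48.7%) a MIZ-1DPOZ one. With equal numbers of peaks the latter count was 3 (42.9%, background 25.3%). Ambra1, which encodes a regulator of Beclin 1 and ULK1, had the highest promoter peak of all 41 genes. It had 13 fragments in the MIZ-1WT list (6.92 to 22.2, −log10 q 7.06, chr2:91730019-91730590) and 21 in the MIZ-1DPOZ list (13 to 32.1, −log10 q 14.8, chr2:91730040-91730653). The peaks overlapped over 551 bp and their summits, in the first part of the gene at 265 and 201 bp from a start, were annotated as intronic. In rank, 8148 of the 78357 MIZ-1DPOZ peaks and 3929 of the 34209 MIZ-1WT peaks had a −log10 q at least as high. Nrbf2, a subunit of the same kinase complex, had 10 fragments (−log10 q 4.74) for MIZ-1WT and 11 (−log10 q 5.05) for MIZ-1DPOZ.

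The 4 other bound nucleation genes had a promoter peak in the MIZ-1DPOZ list only. Uvrag, a Beclin 1 partner, had 16 fragments in coding sequence at 256 bp (9.15 to 26, −log10 q 9.96, chr7:99140624-99141006). Becn1, Beclin 1 itself, had 14 fragments at 126 bp (7.65 to 23.5, −log10 q 7.16, chr11:101301995-101302406). Atg14, the subunit that directs the complex to the endoplasmic reticulum, had 11 fragments (−log10 q 5.05), but its summit lay at -1063 bp, also in the promoter window of the pseudogene Gm6616, and Atg14 lost it when peaks were assigned to the nearest start only. Pik3r4, the regulatory subunit VPS15, had 8 fragments at 11 bp (−log10 q 2.61). In the MIZ-1WT list the nearest peaks were 16783 bp (Uvrag), 13876 bp (Becn1), 79908 bp (Atg14) and 53323 bp (Pik3r4) from these peaks, each far outside the promoter window. Pik3c3, the catalytic subunit VPS34, had no promoter peak.

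Of the membrane supply genes, Wipi1 was found in both lists, Atg2b in the MIZ-1DPOZ list, Wipi2 in the MIZ-1WT list, and Atg9a and Atg2a in neither. The share was 40% in each list, beside backgrounds of 30.9% (MIZ-1WT) and 48.7% (MIZ-1DPOZ). The MIZ-1DPOZ count with equal numbers of peaks was 2 (40%, background 25.3%). Atg2b, a lipid transfer protein, had 14 fragments at 191 bp (7.65 to 23.5, −log10 q 7.89, chr12:105684852-105685205). This peak also lay in the promoter window of Gskip, so that it cannot be ascribed to 1 of the 2 genes. The phosphoinositide-binding WIPI proteins recruit later factors. Wipi2 had 9 fragments at 386 bp (4.12 to 17.1, −log10 q 3.83, chr5:142629538-142630065), with the nearest MIZ-1DPOZ peak 15218 bp away. Wipi1 had 6 fragments in the MIZ-1WT list (−log10 q 1.76), the fewest of any promoter peak at the 41 genes in that list. In the MIZ-1DPOZ list Wipi1 had 12 (−log10 q 5.96).

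Of the 16 conjugation genes, 6 had a promoter peak for MIZ-1WT and 10 for MIZ-1DPOZ, 5 of them in both (37.5%, 62.5% and 31.2%, beside backgrounds of 30.9%, 48.7% and 26.6%). The MIZ-1DPOZ count with equal numbers of peaks was 3 (18.8%), which was below the 25.3% of all protein-coding genes. Atg12 is the ubiquitin-like protein that is joined to ATG5. It had 10 fragments (4.80 to 18.4, −log10 q 5.05) for MIZ-1WT and 16 (9.15 to 26, −log10 q 9.96) for MIZ-1DPOZ. Both summits lay before the start, at -838 and -465 bp, in a region shared with the promoter of Ap3s1, and with peaks assigned to the nearest start Atg12 lost both. Atg10, the E2-like enzyme for ATG12, had 11 fragments in the MIZ-1WT list (5.49 to 19.7, −log10 q 6.03, chr13:91223844-91224055) and 6 in the MIZ-1DPOZ list (2.2 to 13.1, −log10 q 1.29). With Rb1cc1 and Lamp1 it was 1 of the 3 genes whose −log10 q was lower in the MIZ-1DPOZ list although this library was deeper.

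The other genes of the ATG12 branch were Atg16l1 and Atg5. Atg16l1 had 8 fragments (−log10 q 3.28) for MIZ-1WT and 12 (−log10 q 5.96) for MIZ-1DPOZ, with summits 65 bp apart. Atg5 counted as bound in both lists through different sites: the MIZ-1WT summit lay at 199 bp (7 fragments, −log10 q 2.48), whereas the MIZ-1DPOZ summit lay at -1831 bp (8 fragments, −log10 q 2.61). The summits were 2030 bp apart and the peaks 1786 bp. The MIZ-1DPOZ summit window of 201 bp was 76.6% repeat-masked and held 3 CpG dinucleotides, and this summit was the one nearest to the outer edge of the promoter window. Just outside the window lay a MIZ-1WT peak of Map1lc3a (summit at 1464 bp, 8 fragments) and a MIZ-1DPOZ peak of Ulk1 (summit at 1709 bp, 9 fragments). A MIZ-1DPOZ peak of Calcoco1 (summit at 1865 bp, 8 fragments) also lay there. Calcoco1 had no promoter peak, whereas Map1lc3a and Ulk1 had one in each list.

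The ATG4 proteases process LC3 and GABARAP proteins, and 2 of the 4 genes had a promoter peak, both in the MIZ-1DPOZ list only. Atg4b had 16 fragments at 334 bp (9.15 to 26, −log10 q 9.72, chr1:93755003-93755366) in a region that also belonged to the promoter window of Thap4. Atg4d had 9 fragments at 232 bp (−log10 q 3.34), and Atg4a and Atg4c had no promoter peak. Atg7, the E1-like enzyme common to both conjugation branches, Atg3, the E2-like enzyme for LC3, and Atg16l2 had none either.

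Among the ubiquitin-like proteins themselves, the 2 LC3 genes had MIZ-1WT promoter peaks and the 3 GABARAP genes did not. Map1lc3a had 9 fragments (−log10 q 3.52) for MIZ-1WT and 10 (−log10 q 3.89) for MIZ-1DPOZ. Map1lc3b, the gene of LC3B, had 9 fragments at 30 bp in the MIZ-1WT list only (4.12 to 17.1, −log10 q 4.14, chr8:121590646-121590815). Gabarap (10 fragments, −log10 q 4.19), Gabarapl1 (9 fragments, −log10 q 3.37) and Gabarapl2 (10 fragments, −log10 q 4.19) had promoter peaks in the MIZ-1DPOZ list only. Gabarapl2 also had a MIZ-1WT peak in its gene body, with 10 fragments (−log10 q 5.05). The Gabarap summit lay at -1051 bp in a window with 4 CpG dinucleotides.

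Of the 5 cargo receptor genes, Optn had a promoter peak in both lists, Tax1bp1 in the MIZ-1WT list, Sqstm1 in the MIZ-1DPOZ list, and Nbr1 and Calcoco1 in neither. The share was 40% in each list, beside backgrounds of 30.9% (MIZ-1WT) and 48.7% (MIZ-1DPOZ). With equal numbers of peaks the MIZ-1DPOZ count was 0 (background 25.3%). Optn, a receptor in mitophagy and in the autophagy of bacteria, had 7 fragments (−log10 q 2.44) and 11 fragments (−log10 q 4.31) in the respective lists. Its summits were 11 bp apart, the closest of any gene. Sqstm1, the gene of the receptor p62, had 9 fragments at 340 bp (−log10 q 3.21). Tax1bp1 had 8 fragments at 85 bp (−log10 q 3.28, chr6:52713773-52714174), also in the promoter window of the unclassified transcript Gm43966, and Tax1bp1 lost it when only the nearest start counted. The nearest MIZ-1DPOZ peak was 4058 bp away.

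All 3 lysosomal genes had a promoter peak in at least 1 list. In each list 2 of the 3 had one (66.7%), beside 30.9% (MIZ-1WT) and 48.7% (MIZ-1DPOZ) of all protein-coding genes. With equal numbers of peaks the MIZ-1DPOZ count was 0 (background 25.3%). Tfeb, the transcription factor of the lysosomal gene programme, was the only 1 of the 41 genes with more than 1 promoter peak in a list. Its MIZ-1WT peaks had 11 fragments (5.49 to 19.7, −log10 q 5.05, chr17:47737125-47737280) and 8 fragments (3.45 to 15.8, −log10 q 2.48, chr17:47737520-47737813). The MIZ-1DPOZ peak nearest to the higher of these was 4602 bp away. Lamp1, a main glycoprotein of the lysosomal membrane, had 10 fragments in each list, at −log10 q 5.05 (MIZ-1WT) and 4.19 (MIZ-1DPOZ), but the peaks were separated by 75 bp and their summits by 262 bp. Lamp2 had 9 fragments at 335 bp in the MIZ-1DPOZ list only (−log10 q 3.37).

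**Figure D3:**
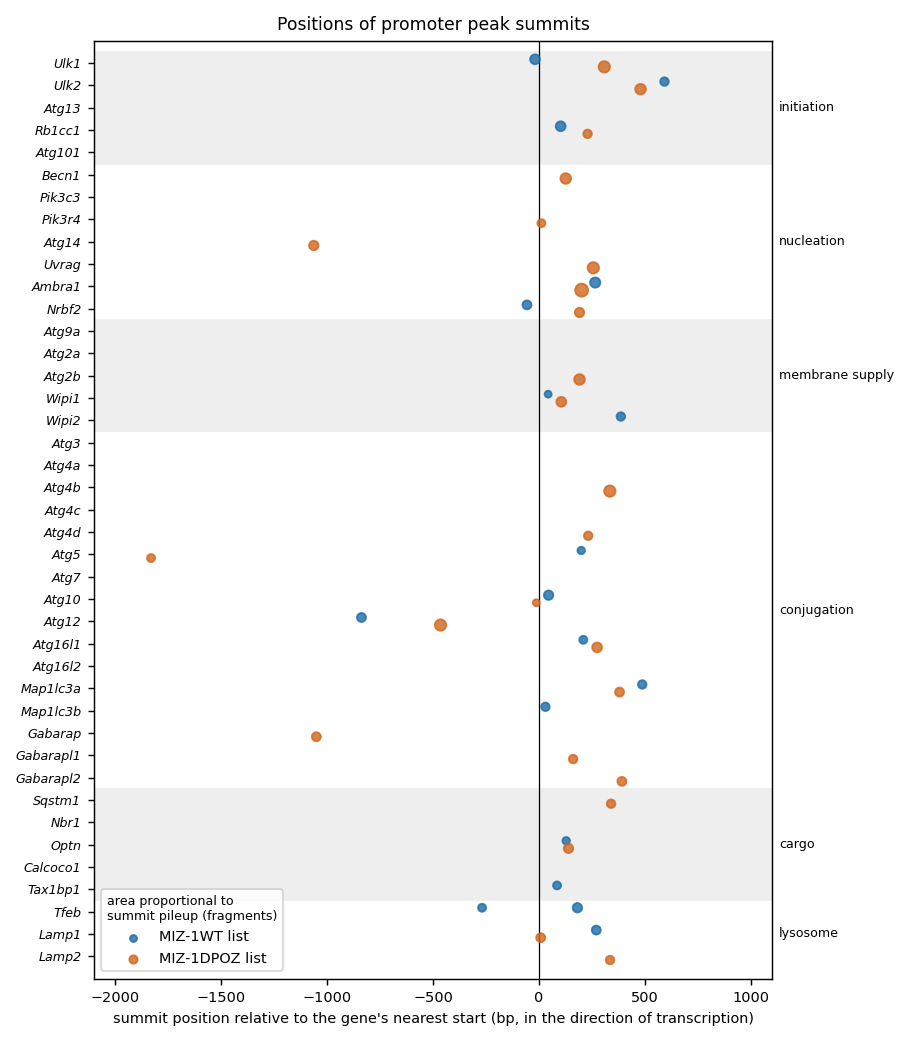
Position of each promoter peak summit relative to the nearest start of its gene (bp, x axis; negative values lie before the start) for the MIZ-1WT list (blue) and the MIZ-1DPOZ list (orange), with the point area proportional to the pileup. Summits lie within 500 bp of a start in 16 of 18 MIZ-1WT peaks and 22 of 25 MIZ-1DPOZ peaks, mostly after it.

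The promoter summits shared their place and their base composition. The median summit position was 115 bp after the start for MIZ-1WT and 191 bp for MIZ-1DPOZ, and summits lay within 500 bp of a start for 16 of 18 and 22 of 25 peaks. In the MIZ-1WT list 7 summits were intronic, 5 lay in a 5′ untranslated region, 3 in coding sequence and 3 outside the gene. In the MIZ-1DPOZ list the numbers were 12, 7, 2 and 4. Of the 18 and 25 peaks, 3 and 7 also lay in the promoter window of another annotated gene or transcript. The 201 bp around the highest summit of a gene had a median GC content of 73.6% for MIZ-1WT and 72.6% for MIZ-1DPOZ. Across every protein-coding gene with a promoter peak these medians were 73.1% and 71.1%, so that the composition of the autophagy sites was close to that of promoter peaks at large.

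In the RefSeq promoters (250 bp before to 50 bp after a start, GRCm38), which were matched for 35 of the 41 genes (not Rb1cc1, Becn1, Pik3c3, Atg12, Atg16l1 and Map1lc3a), the median GC content was 60%, beside 57% for all 16539 matched protein-coding genes. It was 68% for 9 matched genes with a peak in both lists, 62% for 4 with a MIZ-1WT peak only, 60% for 11 with a MIZ-1DPOZ peak only, and 57% for 11 without a peak. These ranges overlapped widely, from 44.7% to 74.7% for the genes bound in both lists and from 40% to 67.3% for those bound in neither.

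Few summits held the letters of the 2 motifs searched. The E-box CACGTG, the same on both strands, occurred within 100 bp of 0 of 18 MIZ-1WT summits and 1 of 25 MIZ-1DPOZ summits, that of Lamp1 (0% and 4%), beside 4.63% and 3.79% of all promoter peaks. ATCGGT, the first letters of a MIZ-1 consensus, searched on both strands, occurred at 0 of 18 and 1 of 25 summits, that of Gabarap (0% and 4%), beside 1.49% and 1.58% of all promoter peaks. In the RefSeq promoters the E-box occurred at 6 of 35 autophagy genes (17.1%), beside 8.13% of all matched promoters. By class it occurred at 3 of 9 genes with a peak in both lists and 0 of 4 with a MIZ-1WT peak only. It also occurred at 1 of 11 with a MIZ-1DPOZ peak only and at 2 of 11 without a peak (18.2%). ATCGGT occurred at 0 of 35, beside 2.44%. These are matches of letters in a window and not measured sites.

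The strength of shared peaks was compared after scaling for depth, with the MIZ-1DPOZ ChIP library taken as 1.34 times deeper. Of the 13 genes with a promoter peak in both lists, 11 had overlapping peaks, and Atg5 and Lamp1 did not. Among all 5848 protein-coding genes with a promoter peak in both lists, 88.5% had overlapping ones. Summits lay within 100 bp of each other at 5 of the 13 genes. The depth-scaled ratio of MIZ-1DPOZ to MIZ-1WT pileup ranged from 0.407 for Atg10 (exact 95% binomial interval 0.124 to 1.20) to 1.49 for Wipi1 (0.518 to 4.84), with a median of 1.12. For Ambra1 it was 1.20 (0.576 to 2.62), for Ulk1 0.994 (0.441 to 2.30) and for Rb1cc1 0.559 (0.208 to 1.45). The interval of each of the 11 ratios included 1, so that no difference was detectable among these genes at this depth. Only genes with overlapping peaks in both lists entered, which leaves out those with a peak in 1 list. Each pileup was read at the summit of its own list, and these summits were up to 373 bp apart (Nrbf2 and Atg12). The intervals cover counting error only, with the depth ratio held fixed.

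**Figure D4:**
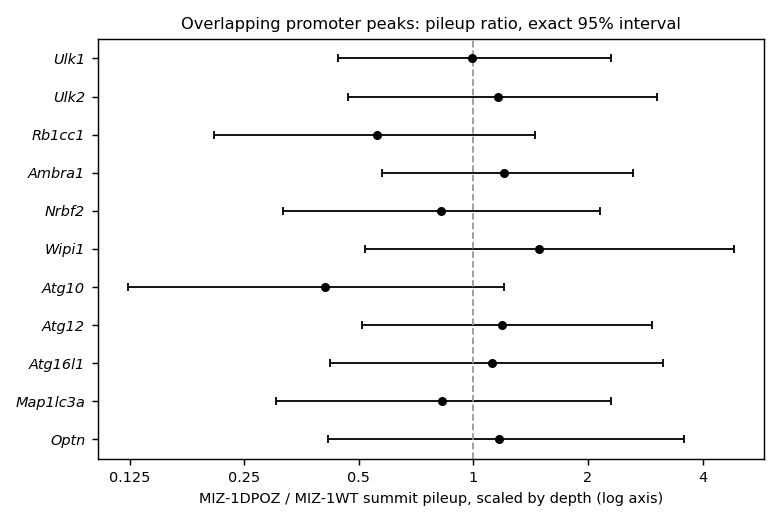
Ratio of MIZ-1DPOZ to MIZ-1WT summit pileup after scaling for depth (x axis, log scale) at the 11 autophagy genes with overlapping promoter peaks, with exact 95% binomial intervals for counting error as bars. All 11 intervals cross the dashed line at 1, from Atg10 (0.407) to Wipi1 (1.49).

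Outside the promoters, 16 autophagy genes had a gene body peak in the MIZ-1WT list (background 24.2%) and 22 in the MIZ-1DPOZ list (background 42.7%). The autophagy genes were longer than the typical gene, with a median of 36.6 kb against 17.4 kb. Per 100 kb of gene they held 0.711 MIZ-1WT and 2.05 MIZ-1DPOZ body peaks, which was below the 0.965 and 2.48 of all protein-coding genes. The larger share of genes with a body peak thus went with a lower density. Of the 17 MIZ-1WT body peaks 13 were intronic and 7 lay mostly in masked repeats, and of the 49 MIZ-1DPOZ body peaks 38 were intronic and 20 lay mostly in masked repeats. These shares of repeats (41.2% and 40.8%) were below those of body peaks in all protein-coding genes (59.5% and 45.5%). At promoters, 0 of 18 and 1 of 25 peaks lay mostly in repeats, beside 3.78% and 4.37% of the highest promoter peaks of all protein-coding genes.

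The genes with the most body peaks were, with the exception of Ulk1, longer than the median. Atg7 (218 kb), Atg4a (207 kb) and Ambra1 (189 kb) had 1, 1 and 2 in the wild-type list and 5, 5 and 4 in that of MIZ-1DPOZ. Atg2b (69.1 kb) had 1 and 4, and Uvrag (256 kb) and Ulk1 (25.6 kb) 1 and 3 each. Atg7 and Atg4a had no promoter peak, so that their only peaks lay inside the gene. In Atg7, an intronic site at chr6:114738296-114738660 was found in both lists with 9 and 17 fragments (−log10 q 4.14 and 11), in the promoter window of the processed pseudogene Gm19040. In Ambra1, a site over a coding exon at chr2:91772421-91772932 was found in both lists with 7 and 16 fragments (−log10 q 2.48 and 9.96). Atg9a, the gene of the transmembrane scramblase, had no promoter peak and 1 shared peak over a coding exon, with 12 and 14 fragments (−log10 q 5.15 and 6).

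**Figure D5:**
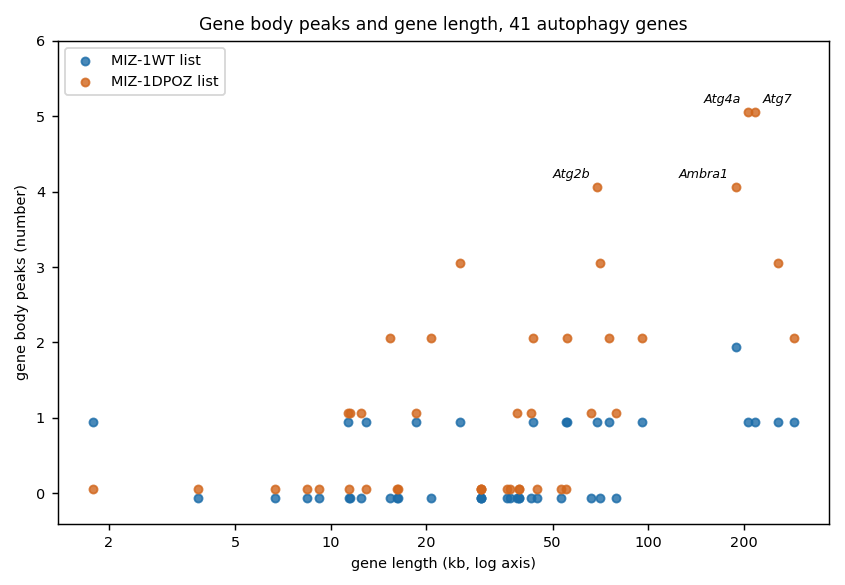
Number of gene body peaks (y axis) against gene length (kb, log x axis) for the 41 autophagy genes in the MIZ-1WT list (blue) and the MIZ-1DPOZ list (orange), with points shifted slightly so that both lists show. Atg4a (207 kb) and Atg7 (218 kb) have 5 MIZ-1DPOZ peaks each, and Atg2b has 4 at 69.1 kb.

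The highest peak at any of the 41 genes, singled out after its values were seen, was an intronic MIZ-1DPOZ peak of Atg2b at chr12:105672190-105672670, 12833 bp from the start, with 54 fragments and a −log10 q of 53.5. Of the 78357 MIZ-1DPOZ peaks 391, itself included, were at least as high, and the nearest MIZ-1WT peak was 46305 bp away. The sequence within 60 bp of its summit, read in the direction of transcription, shows a short unit repeated in tandem, again with CpG dinucleotides in capitals.
Atg2b chr12:105672318-105672438 (- strand): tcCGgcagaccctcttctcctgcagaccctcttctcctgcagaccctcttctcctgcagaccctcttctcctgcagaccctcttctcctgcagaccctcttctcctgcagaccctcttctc
Of the bases within 100 bp of this summit whose partner 51 positions further on also lay in that window, 99.3% equalled it. This interval was not soft-masked in the genome. The shift of 51 scored highest among those of 5 to 60 bp and is not the length of the repeated unit, which is shorter in the run shown. The second highest body peak, in an intron of Atg10 with 31 fragments (−log10 q 17, chr13:91173503-91175119), had 86.4% of bases equal to those 25 positions on and overlapped a MIZ-1WT peak of 9 fragments. Of all 66 body peaks at autophagy genes, 5 exceeded 80% by this measure at shifts of 5 to 60 bp, and of the 43 promoter peaks none did, with a highest value of 44.6%. How reads that match several places were treated is not stated, and its part in these peaks was not tested.

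Of the 12 genes without a promoter peak, 7 had a body peak in at least 1 list, and 5 (Atg13, Atg101, Atg3, Atg16l2 and Nbr1) had no peak at all. The nearest MIZ-1WT peak was 4405 to 97203 bp from a start of these 12 genes, and the nearest MIZ-1DPOZ peak 1784 to 74034 bp. The closest was the MIZ-1DPOZ peak of Calcoco1, with its summit in a coding exon at 1865 bp (8 fragments, −log10 q 2.61). The smallest pileup of any peak was 5 fragments for MIZ-1WT and 6 for MIZ-1DPOZ, so that weaker occupancy was not detectable at this depth.

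A further 65 genes of the pathway, listed by function around the core machinery, were counted in the same way. A promoter peak was found at 26 (40%) of them for MIZ-1WT and at 38 (58.5%) for MIZ-1DPOZ, at 20 (30.8%) in both, beside 30.9%, 48.7% and 26.6% of all protein-coding genes. Of 15 genes of nutrient control, 7 and 11 (46.7% and 73.3%) had a promoter peak, among them Tsc1, Tsc2 and Rptor in both lists and Mtor, the kinase that restrains ULK1, in the MIZ-1DPOZ list only. Of 20 genes of late autophagosomes and fusion 7 and 8 (35% and 40%) had one, the second share being below the background. Peaks in both lists were found at 6 of them (30%, background 26.6%): Rubcn, Snap29, Wdr45b, Zfyve1, Sh3glb1 and Rab7. No promoter peak was found at 11, which included the 6 HOPS tethering genes Vps11, Vps16, Vps18, Vps33a, Vps39 and Vps41. Beside these, 30.9% and 48.7% of all protein-coding genes had a promoter peak in the respective lists. Of 10 genes of mitophagy and ER-phagy 6 and 7 (60% and 70%) had one, with Bnip3 and Bnip3l, both mitophagy receptors, in the MIZ-1WT list only. Of 20 lysosomal hydrolase and membrane genes 6 and 12 (30% and 60%) had one. Among the cathepsins in this group, Ctsl carried a promoter peak in both lists, while Ctsa and Ctsd carried none in either. Ctsb, Ctss and Ctsz were found among the MIZ-1DPOZ promoter peaks but not among those of MIZ-1WT.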

How the data were processed

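ChIP and input libraries of B220+ splenocytes were sequenced as paired ends. Per the study's methods the authors used bwa for alignment to mm10 after trimming, and MACS2 for the narrow peaks. The submitters' processing notes name Bowtie2 2.2.6 and MACS2 2.1.0 instead. This difference was not resolved. The q cutoff, and how duplicates or reads with several matches were handled, are not given in the sources used here. For each peak the authors deposited the fold enrichment, a ratio, at the summit over local background, and the −log10 of the p-value and of the q-value. The reads, the input libraries and library totals were not analysed here.

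Both lists were used whole (34209 MIZ-1WT and 78357 MIZ-1DPOZ peaks; smallest −log10 q 1.03 and 1.01). The reference genome was GRCm38, the same assembly as mm10, with GENCODE M21 basic transcripts. A promoter peak overlapped the window from 2000 bp before to 1000 bp after any start of a gene by at least 1 bp. A body peak overlapped the gene but none of these windows. Coordinates are 1-based. Pileup and background were solved from fold and −log10 p under the Poisson model of MACS2, to within 0.01 in −log10 p for 99.97% and 99.99% of peaks, which included every peak at the 41 genes. The solver was tested on 2000 simulated scores and recovered 100%. The depth ratio came from the most frequent background (0.86 and 1.35 fragments) divided by the smallest peak width (148 and 173 bp). Intervals are exact 95% Poisson or binomial intervals and cover counting error only. Repeats are the soft-masked bases of the genome, in windows of 100 bp on each side of a summit, and a peak lay mostly in repeats above 50%.

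The genes and lists were chosen with earlier results of these data known. Values in full are given for the 10 genes with the highest −log10 q, those with a promoter peak in 1 list, and the 5 with the most body peaks (here 6, owing to a tie). Sequences were limited to at most 8 promoters with at least 30 bases outside annotated untranslated regions; the Atg12 sequence is not reported here. The Atg2b repeat, its sequence and the tandem repeat measure were chosen after the values had been seen. Scripts ran under Python 3.11.15 (scipy 1.17.1, numpy 2.4.6, pandas 2.3.3).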

Additional observations from a re-analysis of the deposited data

How the results depend on the processing

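Of 40 alternative values, 28 stayed within 1.5 times the count as reported. Among these, the MIZ-1WT promoter and body counts with equal numbers of peaks (17 and 16) could not change, because that list was not reduced. With peaks of −log10 q 5 or more, the autophagy genes with a promoter peak numbered 7 (MIZ-1WT), 12 (MIZ-1DPOZ) and 3 (both), beside 9.77%, 33.3% and 7.1% of all protein-coding genes, and those with a body peak 3 and 14, beside 9.58% and 30.7%. With the MIZ-1DPOZ list reduced to the number of MIZ-1WT peaks, 10 genes had a MIZ-1DPOZ promoter peak (25.3% of all genes), 6 had a peak in both lists (16%) and 11 had a MIZ-1DPOZ body peak (24.2%). The autophagy share was then slightly below that of all genes for MIZ-1DPOZ promoter peaks and for peaks in both lists. It was above that of all genes for body peaks. Genes found only among MIZ-1WT peaks rose to 11 and those only among MIZ-1DPOZ peaks fell to 4, and over all genes these classes turned in the same way, to 14.8% and 9.27%. Without peaks in masked repeats, 10 genes had a MIZ-1WT body peak (13.6% of all genes). With summits within 100 bp in place of overlap, 5 genes had a shared site in both lists. Requiring the summit in the window, a window of 500 bp on each side and the nearest start only moved no count of promoter peaks by more than 1.5 times. When pileups were scaled by the background, a ratio of 1.57 in place of 1.34, 3 instead of 6 of the 11 ratios were above 1 and 0 intervals excluded 1.

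No paired analysis was possible because the 2 genotypes have a single ChIP library each, and for the same reason no replicate was left out. A difference between the lists cannot be told apart from a difference between 2 libraries, mice, peak calls or mixtures of B cell subsets. The paper reports fewer follicular B cells and a higher frequency of marginal zone B cells in the spleens of MIZ-1DPOZ mice. A gene without a peak is a gene whose pileup did not pass the authors' cutoff, which at this depth takes at least 5 fragments (MIZ-1WT) or 6 (MIZ-1DPOZ).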
